A study of Rattus norvegicus with 6 samples.

Results

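The dual-specificity MAP kinase phosphatases are enzymes that switch off MAP kinases by removing phosphate from the threonine and the tyrosine of the activation loop. Transcript levels of 10 of their genes were followed in rat mast cells stimulated through Dectin-1, a receptor for fungal beta-glucans. The genes were chosen by name, with earlier results of these data known, so counts over them are a description and not a test of the family. They were Dusp1, Dusp2, Dusp4, Dusp5, Dusp6, Dusp7, Dusp8, Dusp10, Dusp14 and Dusp16, out of 14506 genes that the annotation of the array names by 1 symbol. Each of the 10 was measured by 1 probe set, a group of probes for 1 transcript. Dusp4, Dusp5, Dusp6 and Dusp7 were grouped as ERK-directed, Dusp1, Dusp8, Dusp10 and Dusp16 as p38/JNK-directed, and Dusp2 and Dusp14 were placed in neither subgroup.

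All 6 arrays came from RBL-2H3, a rat basophilic leukaemia line used as a mast cell model, overexpressing wild-type (WT) Dectin-1. The control group (2 arrays) received no stimulus. The curdlan group (2 arrays) was stimulated with curdlan, a particulate beta-glucan. The R406 group (2 arrays) was pretreated with R406, an inhibitor of the kinase Syk, and then stimulated with curdlan. The sources used here do not give the construct's promoter or species, the number of clones, or any dose or time, and no array analysed here had R406 without curdlan or cells without the Dectin-1 construct. Whether paired arrays stem from separate cultures is not in the labels, so p-values reflect only array-to-array spread, which may be technical.

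Dectin-1 signals through Syk, and Syk in turn leads to activation of the MAP kinases ERK, p38 and JNK, which drive transcription of early response genes. Several phosphatase genes are themselves early targets of these kinases, and their products then shorten the signal. Most family members carry an amino-terminal domain that docks a particular MAP kinase in addition to the catalytic domain. In mast cells this kinase network lies downstream of the IgE receptor as well, where it is linked to cytokine production.

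Of 11 mast cell markers, 9 had a mean log2 signal above 7.22, the median probe set, among them Kit at 12.72, Fcer1a at 12.75 and Ms4a2 at 13.52, while Tpsb2 lay at 6.27 and Tph1 at 6.66. Of these markers Tph1 was called, 0.72 higher with curdlan than in control and 0.69 lower under R406 than with curdlan (limma, adjusted p = 0.0295 and 0.0123), and its part in the results was not tested. Their summed log2 signal was 129.2 in control, 129.7 in curdlan and 129.2 in R406 arrays. Of 12 measured markers of macrophages, lymphocytes and fibroblasts, 3 lay above that median, the highest being Col1a1 at 8.16. The median log2 signal of the 6 arrays ranged from 7.20 to 7.24, and arrays of 1 group correlated at 0.997 to 0.998 over all probe sets. Syk itself had mean log2 signals of 9.14, 9.02 and 9.09 in control, curdlan and R406 arrays, and Clec7a, the rat Dectin-1 gene, 7.07, 7.22 and 7.12. The mean of Clec7a over the 6 arrays, 7.14, was below the median probe set, so the array did not show the overexpression named in the labels; whether this probe set detects the construct was not tested.

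The upstream sequence of 3 genes is shown because their transcripts took 3 different courses below: Dusp5 rose with curdlan and under R406 ended below control, Dusp7 rose and under R406 was not called against control, and Dusp1 fell and under R406 was not called against control. Each run holds the 250 bases just before the annotated start of transcription, 5′ to 3′ on the gene's strand, from RefSeq (rat assembly GRCr8). All 3 genes lie on the plus strand, Dusp5 at chr1:262543524-262543773, Dusp7 at chr8:115887841-115888090 and Dusp1 at chr10:17184603-17184852, and none of these windows overlaps the annotated gene. Capitals mark matches to the CArG box, the binding sequence of serum response factor, or to the cAMP response element TGACGTCA.
Dusp5: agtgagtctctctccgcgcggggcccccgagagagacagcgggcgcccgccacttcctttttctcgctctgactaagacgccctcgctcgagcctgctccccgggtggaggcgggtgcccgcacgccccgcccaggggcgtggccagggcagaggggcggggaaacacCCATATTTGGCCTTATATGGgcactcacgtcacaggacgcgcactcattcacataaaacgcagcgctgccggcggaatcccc
Dusp7: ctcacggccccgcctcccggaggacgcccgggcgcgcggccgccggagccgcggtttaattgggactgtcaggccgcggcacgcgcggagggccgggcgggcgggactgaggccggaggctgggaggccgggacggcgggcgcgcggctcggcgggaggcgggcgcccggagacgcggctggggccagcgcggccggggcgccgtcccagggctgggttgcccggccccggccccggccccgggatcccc
Dusp1: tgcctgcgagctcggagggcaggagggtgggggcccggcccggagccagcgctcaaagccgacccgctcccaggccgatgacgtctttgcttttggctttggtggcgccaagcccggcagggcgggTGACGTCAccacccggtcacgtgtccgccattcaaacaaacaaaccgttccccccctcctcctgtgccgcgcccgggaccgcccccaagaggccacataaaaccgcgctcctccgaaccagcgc

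Both strands of the windows were searched for 8 motifs, and 9 of the 10 genes had a sequence in the table; Dusp4 was not matched. The Dusp5 window held 2 CArG boxes side by side without overlap, CCATATTTGG from 82 to 73 bases and CCTTATATGG from 72 to 63 bases before the start. No other matched phosphatase gene had this motif in its window, and 412 of 27457 rat promoter windows of the same length had at least 1, with 0.0255% having more than 1. The Dusp1 window held 1 cAMP response element, 124 to 117 bases before the start, a motif found in 1.70% of windows. The E-box CACGTG was present in the windows of Dusp1 and Dusp2 (5.79% of all windows), and the GC box GGGCGG in those of Dusp5, Dusp7, Dusp1, Dusp10, Dusp16 and Dusp2 (32.4% of all windows). None of the 9 windows held the AP-1 site TGANTCA (6.36% of all windows), the ETS site CCGGAAGT (3.29%), the FOXO site GTAAACA (3.25%) or the NFAT-type core GGAAAA (21.3%). The windows of Dusp6, Dusp8, Dusp10 and Dusp14 lie partly or wholly inside the annotated gene, whose span begins further upstream. The GC content was 67.2% for Dusp5, 84.4% for Dusp7 and 68.8% for Dusp1, against a median of 52.0% over all windows. These matches are letters in a window, and no binding was measured.

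The signals of the phosphatase genes were log2 values normalized by the authors, so a difference of 1 is a 2-fold change. Each change is the gap between 2 group means, given ± its standard error from a limma fit of the 6 arrays. A gene counted as called when its p, adjusted by the Benjamini-Hochberg method across 29214 probe sets, was under 0.05. The gap between the 2 arrays of a group was at most 0.17 log2 units, except in the curdlan arrays of Dusp8 (0.36) and Dusp14 (0.27).

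**Figure D1:**
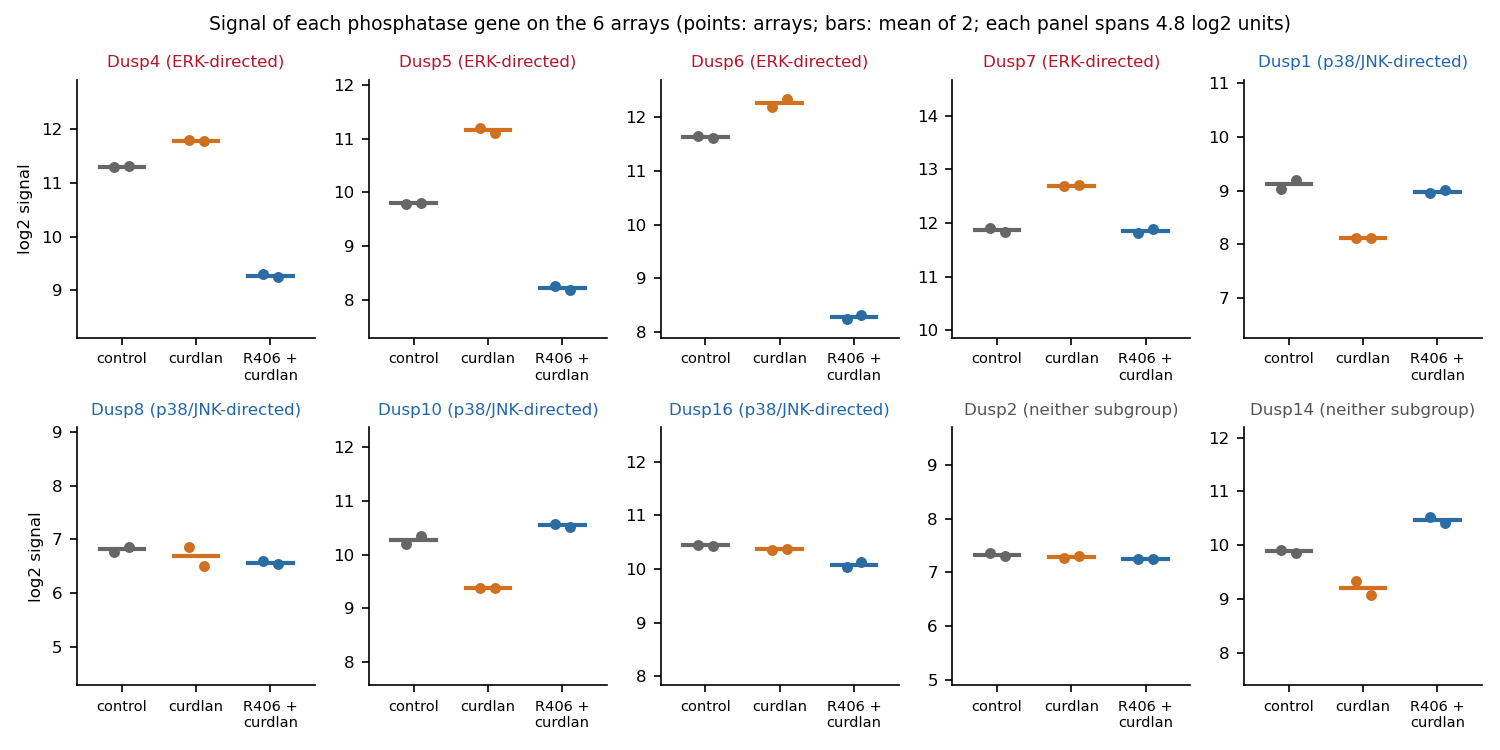
Log2 signal (vertical axis) of the 10 phosphatase genes on the 2 control, 2 curdlan and 2 R406 plus curdlan arrays; points are arrays and bars the mean of 2, and every panel spans the same range. Dusp4, Dusp5 and Dusp6 are highest with curdlan and lowest with R406 plus curdlan, whereas Dusp1, Dusp10 and Dusp14 are lowest with curdlan.

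The first question was which of these genes respond to Dectin-1 stimulation. With curdlan, 4 of the 10 genes rose, 2 fell and 4 were not called. The 4 that rose were the ERK-directed genes Dusp5, Dusp7, Dusp6 and Dusp4, and the 2 that fell were Dusp1 and Dusp10 of the p38/JNK-directed subgroup. Among all probe sets 1.59% were called, 1.04% higher and 0.551% lower. The curdlan and control arrays did not overlap for 8 of the 10 genes, beside 43.1% of all probe sets. In such bulk RNA, a change in the number of responding cells and a change in RNA per cell cannot be told apart. The ERK-directed genes had a median change of 0.73 and the p38/JNK-directed genes one of -0.51, beside a median of -0.01 over all probe sets.

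Dusp5 encodes a nuclear phosphatase that acts on ERK and not on p38 or JNK. Its signal was 9.78 and 9.81 in the control arrays, 11.20 and 11.11 with curdlan, and 8.25 and 8.18 with R406 plus curdlan. It was highest on both curdlan arrays, with no overlap between any of the groups. The rise with curdlan was 1.36 ± 0.0557, a 2.57-fold change (limma, adjusted p = 0.00215), and it stayed called without each array in turn (adjusted p from 0.0183 to 0.0476).

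Dusp7 encodes a cytoplasmic ERK phosphatase. Its signal was 11.91 and 11.83 in the control arrays, 12.69 and 12.70 with curdlan, and 11.82 and 11.89 with R406 plus curdlan. The curdlan arrays stood above all 4 others, and the control and R406 arrays overlapped. It rose by 0.82 ± 0.0542 with curdlan, which is 1.77-fold (limma, adjusted p = 0.00807).

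The product of Dusp6, like that of Dusp7, is a cytoplasmic ERK phosphatase known as a read-out of ERK activity. Its signal was 11.65 and 11.61 in the control arrays, 12.18 and 12.34 with curdlan, and 8.24 and 8.32 with R406 plus curdlan. The step from control to curdlan was small beside the step down to the R406 arrays. The rise was 0.63 ± 0.0706, or 1.55-fold (limma, adjusted p = 0.0305).

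Dusp4 encodes a nuclear phosphatase that takes ERK and, in some settings, JNK and p38 as substrates. Its signal was 11.29 and 11.31 in the control arrays, 11.79 and 11.79 with curdlan, and 9.30 and 9.24 with R406 plus curdlan. The arrays of each group lay within 0.06 of each other, and the groups did not overlap. It rose by 0.49 ± 0.0463 with curdlan, or 1.4-fold (limma, adjusted p = 0.0218).

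In the p38/JNK-directed subgroup, Dusp1 encodes a nuclear phosphatase that restrains p38 and JNK and is widely known as an early response gene. Its signal was 9.03 and 9.20 in the control arrays, 8.12 and 8.13 with curdlan, and 8.96 and 9.01 with R406 plus curdlan. Both curdlan arrays were below all others, and the R406 arrays were just below the control arrays. It fell by 0.99 ± 0.0685 with curdlan, a 1.99-fold change (limma, adjusted p = 0.0095).

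Dusp10 encodes a phosphatase of JNK and p38. Its signal was 10.20 and 10.34 in the control arrays, 9.38 and 9.37 with curdlan, and 10.57 and 10.52 with R406 plus curdlan. The order of the groups was curdlan lowest, then control, then R406, with no overlap. It fell by 0.90 ± 0.0635 with curdlan, or 1.86-fold (limma, adjusted p = 0.00988).

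Dusp16 and Dusp8, which encode phosphatases of JNK and p38, were not called with curdlan. The signal of Dusp16 was 10.45 and 10.43 in the control arrays, 10.36 and 10.38 with curdlan, and 10.03 and 10.13 with R406 plus curdlan, and its difference with curdlan was -0.07 ± 0.053 (95% interval -0.21 to 0.06; limma, adjusted p = 0.635). The signal of Dusp8 was 6.77 and 6.86 in the control arrays, 6.87 and 6.51 with curdlan, and 6.60 and 6.53 with R406 plus curdlan. For Dusp8 the curdlan arrays lay on either side of the R406 arrays and 1 was above both control arrays; the difference was -0.13 ± 0.124 (95% interval -0.44 to 0.19; limma, adjusted p = 0.726). Its sign turned to 0.05 without curdlan replicate 2.

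Of the remaining pair, Dusp14 encodes a small phosphatase that lacks the amino-terminal docking domain of the other members. Its signal was 9.92 and 9.86 in the control arrays, 9.34 and 9.07 with curdlan, and 10.51 and 10.41 with R406 plus curdlan. Both curdlan arrays were the lowest and both R406 arrays the highest. The difference with curdlan was -0.68 ± 0.1 and was not called (limma, adjusted p = 0.0545), although the gene was called lower with arrays centred on their median, among probe sets above the median signal, and with an intensity trend in the variance model (7 of 10, 7 of 9 and 7 of 10 genes called, Dusp8 being under the median signal). Over all probe sets these settings called 421 of 29214, 1572 of 14607 and 1557 of 29214, against 465 of 29214. Dusp2, a nuclear phosphatase of activated lymphoid cells, had signals of 7.36 and 7.30 in the control arrays, 7.26 and 7.30 with curdlan, and 7.25 and 7.24 with R406 plus curdlan, and a difference with curdlan of -0.05 ± 0.0482 (95% interval -0.17 to 0.08; limma, adjusted p = 0.734).

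With 2 arrays a group, the calls of the curdlan comparison depended on the number of arrays: leaving out any 1 array left 1 to 3 genes called, and Dusp5 alone was called in all 6 of those fits. Without control replicate 2, curdlan replicate 1 or curdlan replicate 2 it was the 1 gene called; without control replicate 1 Dusp1 and Dusp10 were called too, and without R406 plus curdlan replicate 1 or 2 Dusp7. The changes themselves moved little in these fits, from 0.48 to 0.50 for Dusp4, 0.56 to 0.71 for Dusp6, 0.78 to 0.86 for Dusp7, -1.07 to -0.91 for Dusp1 and -0.97 to -0.83 for Dusp10.

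**Figure D2:**
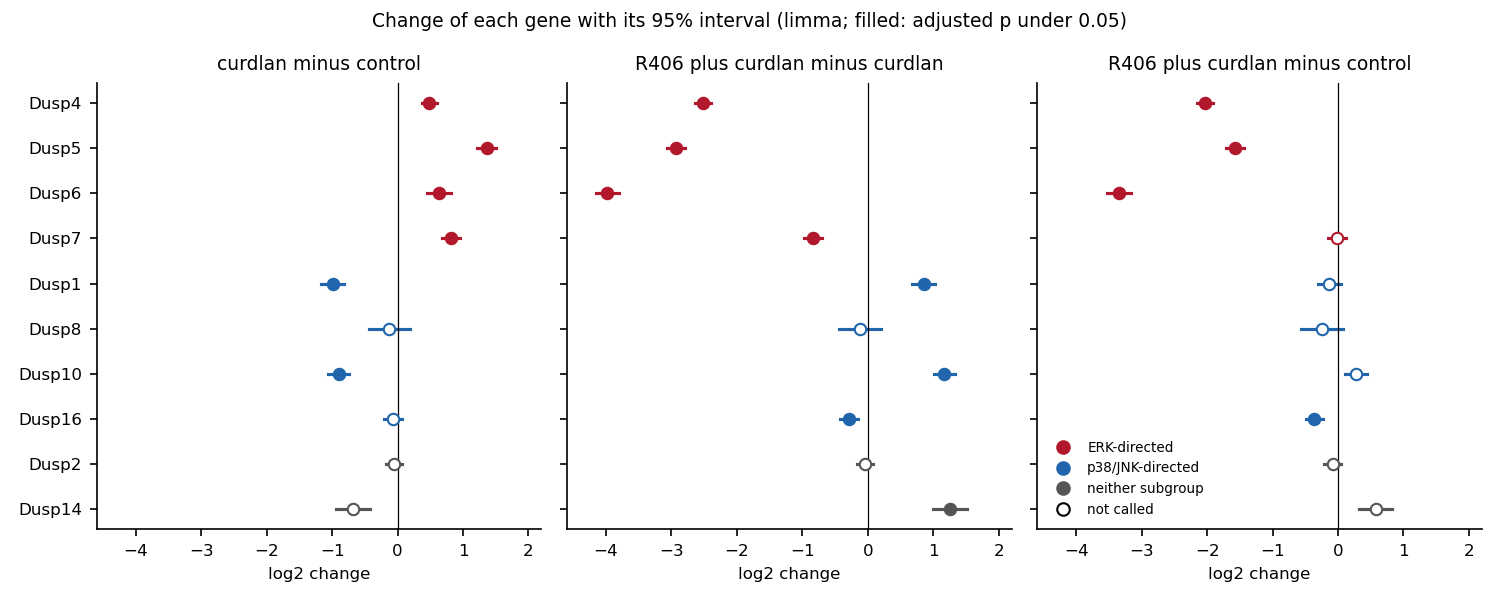
Log2 change (horizontal axis) of each gene in the 3 comparisons, with its 95% interval from the limma fit; filled points passed an adjusted p under 0.05. The ERK-directed genes lie right of 0 with curdlan and left of 0 under R406, and against control Dusp7 lies at -0.02 while Dusp4, Dusp5 and Dusp6 lie at -2.03, -1.57 and -3.34.

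The second question was how these levels differ when cells are pretreated with the Syk inhibitor R406 before curdlan is added. Syk activity was not measured on these arrays. Against curdlan alone, 5 of the 10 genes were lower under R406, 3 were higher and 2 were not called. Those that fell were all 4 ERK-directed genes and Dusp16, and those that rose were Dusp14, Dusp10 and Dusp1. Among all probe sets 7.25% were called, 3.23% lower and 4.02% higher. The R406 and curdlan arrays did not overlap for 9 of the 10 genes, beside 53.3% of all probe sets. The ERK-directed genes had a median change of -2.73 and the p38/JNK-directed genes one of 0.37, beside a median of 0.00 over all probe sets. Both comparisons use the same curdlan arrays, so a gene's 2 changes are not independent.

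Dusp6 had the largest difference of the 10 genes, a fall of 3.98 ± 0.0706, or 15.8-fold (limma, adjusted p = 7.88e-05). Dusp5 fell by 2.93 ± 0.0557, or 7.64-fold, and Dusp4 by 2.52 ± 0.0463, or 5.73-fold (limma, adjusted p = 8.93e-05 and 8.38e-05). Their 95% intervals, -4.16 to -3.80 for Dusp6, -3.08 to -2.79 for Dusp5 and -2.64 to -2.40 for Dusp4, did not overlap. Dusp7 fell by 0.84 ± 0.0542, or 1.79-fold (limma, adjusted p = 0.0031), the smallest fall of the ERK-directed genes. The differences between these genes were not tested.

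Among the genes that were higher under R406, Dusp14 rose by 1.25 ± 0.1, or 2.39-fold, and Dusp10 by 1.17 ± 0.0635, or 2.25-fold (limma, adjusted p = 0.00532 and 0.0021). Dusp1 rose by 0.86 ± 0.0685, or 1.81-fold (limma, adjusted p = 0.00532). Dusp16 went the other way from Dusp1 and Dusp10 within its subgroup, with a fall of 0.29 ± 0.053, or 1.22-fold (limma, adjusted p = 0.0403). Dusp8 and Dusp2 had differences of -0.12 ± 0.124 and -0.04 ± 0.0482 (limma, adjusted p = 0.645 and 0.721).

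Dusp4, Dusp5, Dusp6, Dusp7 and Dusp10 stayed called under R406 without each array in turn. Dusp1 and Dusp14 were not called without R406 plus curdlan replicate 1 or 2 (adjusted p up to 0.0598 and 0.0567), and the call of Dusp16 was lost without any 1 array (adjusted p from 0.0811 to 0.194) and with arrays centred on their median.

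The third comparison set R406 plus curdlan against unstimulated control cells, and so asked whether levels under the inhibitor returned to those of resting cells. Of the 10 genes, 4 were lower than control, 0 were higher and 6 were not called; at an unadjusted p under 0.05, Dusp10 and Dusp14 were higher. Among all probe sets 2.23% were called, 0.791% lower and 1.44% higher. The R406 and control arrays did not overlap for 9 of the 10 genes, beside 53.5% of all probe sets. The 4 lower genes were Dusp6, Dusp4, Dusp5 and Dusp16.

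Dusp6 was below control by 3.34 ± 0.0706, or 10.2-fold (limma, adjusted p = 0.000513), Dusp4 by 2.03 ± 0.0463, or 4.09-fold (adjusted p = 0.000571), and Dusp5 by 1.57 ± 0.0557, or 2.98-fold (adjusted p = 0.00169). For Dusp6 and Dusp4 this distance below control was larger than the distance that curdlan alone raised them above it, 0.63 and 0.49, and for Dusp5 the distances were 1.57 and 1.36. These 3 calls held without each array in turn. Dusp16 was lower than control by 0.36 ± 0.053 (limma, adjusted p = 0.0455), and this call was lost without any 1 array (adjusted p from 0.0958 to 0.203) and with arrays centred on their median.

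Dusp7 differed from control by -0.02 ± 0.0542, with a 95% interval of -0.15 to 0.12 (limma, adjusted p = 0.905). Dusp1 differed by -0.13 ± 0.0685, with an interval of -0.31 to 0.04 (limma, adjusted p = 0.351). For both genes the interval leaves out the size of the change seen with curdlan alone. Dusp14 and Dusp10 had values above control, at 0.58 ± 0.1 and 0.27 ± 0.0635, that were not called (limma, adjusted p = 0.0627 and 0.107); with an intensity trend or among probe sets above the median signal both were called higher (6 of 10 and 6 of 9 genes called). Over all probe sets these settings called 2341 of 29214 and 2278 of 14607, against 652 of 29214. Dusp8 and Dusp2 had differences of -0.25 ± 0.124 and -0.08 ± 0.0482 (limma, adjusted p = 0.344 and 0.396). The arrays cannot tell apart the loss of a curdlan response from an effect of R406 on resting cells, since no array with R406 alone was analysed.

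The ERK-directed and p38/JNK-directed subgroups were set side by side on each array, as the mean over the 4 genes of the signal minus that gene's control mean. The ERK-directed mean was 0.82 and 0.84 on the curdlan arrays and -1.74 on each R406 array. This R406 mean joins changes against control of -3.34 for Dusp6, -2.03 for Dusp4 and -1.57 for Dusp5. It also holds Dusp7, at -0.02 and not called. The p38/JNK-directed mean was -0.48 and -0.56 on the curdlan arrays and -0.12 and -0.11 on the R406 arrays. The subgroups thus lay apart in opposite directions in the 2 conditions, by 1.29 and 1.40 on the curdlan arrays and by -1.63 and -1.62 on the R406 arrays. The 2 control arrays gave 0.06 and -0.06, which are equal and opposite because the control mean was subtracted. The comparison of the subgroups is a description without a test. Within the p38/JNK-directed mean, Dusp1 and Dusp10 were the genes called with curdlan, and against control the changes under R406 were -0.36 for Dusp16, -0.25 for Dusp8, -0.13 for Dusp1 and 0.27 for Dusp10, of which only that of Dusp16 was called.

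**Figure D3:**
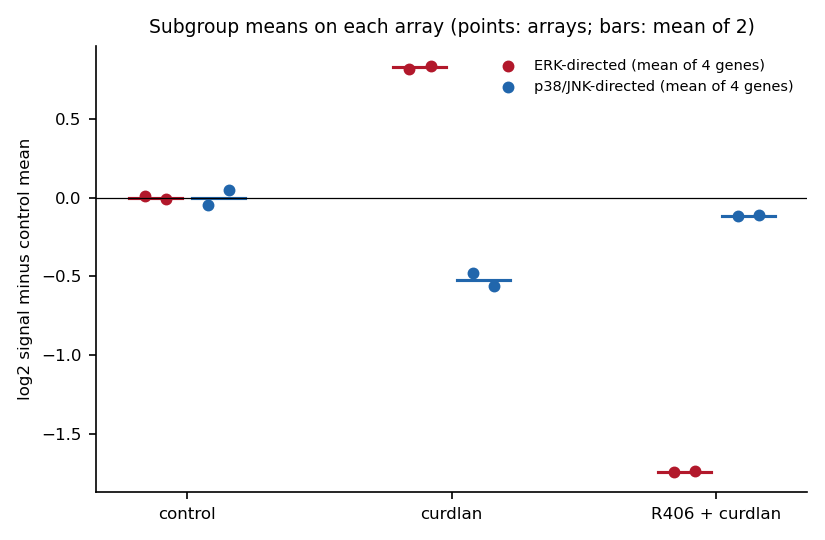
Mean over the 4 ERK-directed and over the 4 p38/JNK-directed genes of log2 signal minus control mean (vertical axis) on each array; points are arrays and bars the mean of 2. The subgroups lie apart by 1.29 and 1.40 on the curdlan arrays and in the opposite direction, by -1.63 and -1.62, on the R406 plus curdlan arrays.

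Genes whose signals ran most like those of Dusp6 and Dusp10 were sought among 115 other genes whose group means spanned at least 1 log2 unit. For Dusp6 the 5 closest by Pearson r over the 6 arrays were Slamf1, Gadd45a, Dusp4, Bhlhe40 and Egr1, with r from 0.998 to 0.999. Slamf1 had group means of 9.44 in control, 9.64 with curdlan and 8.60 with R406 plus curdlan, Gadd45a 11.57, 11.79 and 10.54, and Egr1 11.24, 12.14 and 7.46. For Dusp10 they were Ccng2 (r = 0.999), Cxcr4 (0.998), Pik3ip1 (0.986), Atf4 (0.984) and Pnrc1 (0.981). Ccng2 had group means of 10.96, 9.07 and 11.50, and Pik3ip1 8.27, 7.46 and 8.72. The arrays form 3 groups of 2, so these r values describe little more than the order and spacing of 3 group means.

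The kinases and targets around these phosphatases were taken as 6 lists, described by counts and medians. The lists were chosen with earlier results of these data known. The share of all probe sets called, to be read beside these counts, was 1.59% with curdlan and 7.25% under R406 against curdlan. Against control it was 2.23%. In the RAS-ERK cascade, 19 of 25 entries were measured. Of the 19 genes 0 were called with curdlan by limma (5 at an unadjusted p under 0.05). Sos1, a RAS exchange factor, was at 0.24 ± 0.0425 there (limma, adjusted p = 0.0764). Against control 2 were called under R406, Sos1 at 0.46 ± 0.0425 and Rasa2, a RAS GTPase-activating protein, at -0.46 ± 0.0532 (limma, adjusted p = 0.0171 and 0.0266). These 2 calls rest on 2 arrays a group, and the list's median against control was -0.025. Under R406 against curdlan Rasa2 fell by 0.70 ± 0.0532 while Sos1 rose by 0.22 ± 0.0425 (limma, adjusted p = 0.00469 and 0.0465). The list's medians were 0.03 and -0.02, near those of all probe sets, and without any 1 array 0 or 1 gene was called under R406 against curdlan, with Sos1 lost in all 6 fits and Rasa2 in 2.

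Of 33 measured genes of the p38 and JNK cascades, 3 rose and 2 fell with curdlan, with a median of -0.02. The upstream kinase gene Map3k1 fell by 0.79 ± 0.0641 and the p38 kinase gene Map2k6 by 0.41 ± 0.0558, whereas Map2k3, which encodes the other main p38 kinase, rose by 0.54 ± 0.0602 and Gadd45b, a regulator of Map3k4, by 0.75 ± 0.0921 (limma, adjusted p from 0.0146 for Map3k1 to 0.044 for Map2k6). Under R406 against curdlan 4 rose and 6 fell. Map3k1 rose by 0.49 ± 0.0641 and Map2k3, Gadd45b and Gadd45a fell by 0.61 ± 0.0602, 0.60 ± 0.0921 and 1.25 ± 0.0487 (limma, adjusted p from 0.000829 for Gadd45a to 0.0266 for Gadd45b). Against control 3 of the 33 were higher, Map3k3, Rps6ka5 and Map3k6 at 0.46, 0.42 and 0.37, and 1, Gadd45a, was lower by 1.03 ± 0.0487 (limma, adjusted p from 0.00483 to 0.0445). Without any 1 array, 0 of the 33 were called with curdlan, 1 to 8 under R406 against curdlan and 0 to 1 against control, where Map3k3, Rps6ka5 and Map3k6 lost their calls in all 6 fits.

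Of 27 measured genes of ERK-dependent transcription, 7 rose and 0 fell with curdlan, and 17 fell and 0 rose under R406 against curdlan. Their medians were 0.19 and -0.71. The largest falls under R406 against curdlan were Egr1 at -4.68 ± 0.0792, Egr3 at -3.97 ± 0.0702, Myc at -3.93 ± 0.0807 and Ier3 at -3.30 ± 0.0548 (limma, adjusted p from 7.88e-05 for Egr1 to 0.000112 for Myc). With curdlan the largest rises were Egr3 at 3.23 ± 0.0702, Egr2 at 1.53 ± 0.187, Ier3 at 1.41 ± 0.0548 and Egr1 at 0.90 ± 0.0792 (limma, adjusted p from 0.000547 for Egr3 to 0.0374 for Egr2). Without each array in turn the rise of Egr2 ranged from 1.33 to 1.72. Against control 11 of the 27 were lower under R406 and 0 higher, with a median of -0.28, among them Egr1 at -3.78 ± 0.0792, Myc at -3.38 ± 0.0807, Ier3 at -1.89 ± 0.0548 and Spry4 at -1.70 ± 0.0513 (limma, adjusted p from 0.000513 for Egr1 to 0.000987 for Spry4). Dusp4, Dusp5 and Dusp6 were likewise below control, and Dusp7 was not called. Leaving out 1 array left 2 to 3 genes of the list called with curdlan 11 to 15 under R406 against curdlan and 4 to 5 against control.

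Of 17 measured factors regulated by p38 or JNK, 4 rose and 2 fell with curdlan (median 0.09), and 2 rose and 9 fell under R406 against curdlan (median -0.35). With curdlan Tnf rose by 1.40 ± 0.0763 and Junb by 1.16 ± 0.0462, while Atf3 fell by 1.71 ± 0.135 and Ddit3 by 1.12 ± 0.0747 (limma, adjusted p from 0.00215 for Junb to 0.0137 for Atf3). Under R406 against curdlan Tnf was at -2.70, Junb at -1.79, Ptgs2 at -1.41 and Ddit3 at 0.85 (limma, adjusted p from 0.000292 for Junb to 0.00652 for Ddit3). Leaving out 1 array left 1 to 3 genes called with curdlan and 3 to 10 under R406 against curdlan. Against control 5 were lower and 0 higher, with Ptgs2 at -1.37 ± 0.0547, Tnf at -1.30 ± 0.0763, Atf3 at -1.02 ± 0.135 and Junb at -0.63 ± 0.0462 (limma, adjusted p from 0.00271 for Ptgs2 to 0.0356 for Atf3). Without any 1 array 0 to 4 were called against control; Atf3 lost its call in all 6 fits, Ptgs2 and Junb in 4 and Tnf in 2.

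The last 2 lists held other phosphatases, read against the 7.25% of all probe sets called under R406 against curdlan. Of 13 other dual-specificity phosphatase genes, limma called 0 with curdlan or against control (2 and 3 at an unadjusted p under 0.05), and under R406 against curdlan 1, Dusp18, rose by 0.55 ± 0.061 (limma, adjusted p = 0.0109), a call lost without curdlan replicate 1 or either R406 array. Of 16 further phosphatase genes that act on MAP kinases or their pathways, limma called 0 with curdlan or against control (3 and 3 at an unadjusted p under 0.05), and under R406 against curdlan Ppm1d, a p53-induced phosphatase of p38, rose by 0.36 ± 0.0594 and Ptpn6, which encodes SHP-1, fell by 0.26 ± 0.0464 (limma, adjusted p = 0.0326 and 0.0401). Both calls were lost without any 1 array (adjusted p from 0.0684 to 0.177 for Ppm1d and 0.0781 to 0.23 for Ptpn6). The medians of the 2 lists lay between -0.07 and 0.07 in all 3 comparisons.

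**Figure D4:**
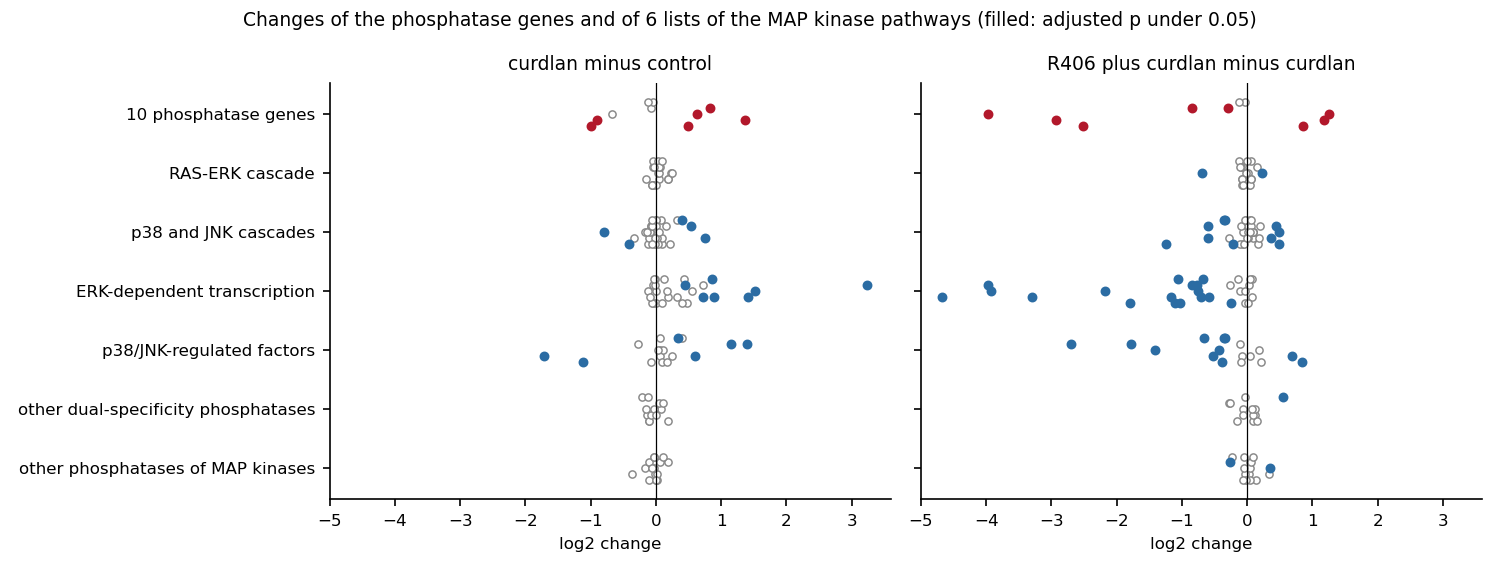
Log2 change (horizontal axis) with curdlan against control and with R406 plus curdlan against curdlan, for the 10 phosphatase genes and the measured genes of 6 lists; each point is a gene, and filled points passed an adjusted p under 0.05 (limma). Under R406 against curdlan, 17 of 27 genes of the ERK-dependent transcription list are called lower. Of all probe sets 3.23% are called lower and 7.25% in either direction. The 2 lists of other phosphatases have 1 of 13 and 2 of 16 genes called there. With curdlan 7 genes of the ERK-dependent transcription list are called and 0 of the other phosphatases, beside 1.59% of all probe sets.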

How the data were processed

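The authors deposited a normalized log2 signal for each probe set on each of 6 arrays. The submitters' processing notes name Affymetrix Expression Console; its version, the background correction, the summarisation, the scaling between arrays and the genome build were not given in the sources. That the scale is log2 was judged from the range, which ends at 14.41. The normalization may have removed a change shared by most transcripts, and no detection call was used.

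Groups came from the sample titles. One limma fit (R 4.3.3, limma 3.58.1, lmFit and eBayes) of 29214 probe sets on 6 arrays gave 3 contrasts, with 3 residual degrees of freedom, 2.16 prior degrees of freedom and Benjamini-Hochberg adjustment over all probe sets. The procedure was run on simulated data with independent noise and known changes in the curdlan group only. Those data held no variation shared by arrays of a culture, so they check the calculation and not that spread. The small number of arrays limits the precision. By the platform annotation 15310 probe sets had 1 gene symbol, 323 several and 13581 none. Where a gene had several probe sets the one with the highest mean was used. Of 141 list entries 125 were measured. All 10 phosphatase genes are named in every comparison, and up to 4 called genes of each list with the largest change, with the 5 genes most like Dusp6 and Dusp10. The genes, subgroups and lists were chosen with earlier results of these data known. Same-numbered arrays did not deviate together (correlations -0.115 to 0.113), so the numbers were not used as pairs. Sequences and gene positions are from RefSeq, matched by gene ID.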

Additional observations from a re-analysis of the deposited data

How the results depend on the processing

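The 30 changes of the 10 genes were recomputed under 15 alternatives, except that Dusp8, under the median signal, had 14. The count of genes called with curdlan, 6, was 3 with the replicate number as a replicate block (2 higher, 1 lower) and 2 in the fit of 4 arrays, and 1 to 3 without each array in turn. Under R406 against curdlan the count, 8, was 7 with the replicate block and 5 to 7 without each array; it was 5 without R406 plus curdlan replicate 1 or 2. Against control the count, 4, was 3 with the replicate block and 3 without any 1 array. A crossed replicate block, with the control numbers exchanged and added after seeing the data, gave 5, 7 and 3. These fits have fewer residual degrees of freedom. Without each array in turn, the distance between the subgroups was 1.29 to 1.40 with curdlan and -3.03 to -2.92 under R406 against curdlan. Against control it was -1.68 to -1.57. With 2 arrays a group, leaving out 1 puts the other array's value in place of the mean. These ranges therefore restate the gap between paired arrays and are no separate check. Of the 30 changes the sign turned only for 3 that were not called. Only leaving out an array, quantile normalization and centring on the median can move a change. The other alternatives alter its error or its call and leave its value as it was, so they could not turn a sign. Dusp7 against control was 0.0096 after centring each array on its median, and -0.055 to 0.025 without each array, above 0 without control replicate 1 (0.025) or R406 plus curdlan replicate 1 (0.021). Dusp8 ranged from -0.30 to 0.053 with curdlan, the latter without curdlan replicate 2, and from -0.30 to 0.059 under R406 against curdlan, the latter without curdlan replicate 1. Over all probe sets, 465, 2118 and 652 were called in the 3 comparisons, against 32 to 1572, 210 to 3767 and 15 to 2341 over the alternatives, the lowest without control replicate 2 and, in both R406 comparisons, without R406 plus curdlan replicate 2.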

Other observations

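Srf and Creb1 were looked at after their values were seen, because they encode factors that bind the CArG box and the cAMP response element. Srf had a signal of 11.22 and 11.26 in control arrays, 11.93 and 12.01 with curdlan, and 10.79 and 10.81 with R406 plus curdlan. It rose by 0.73 ± 0.0509 with curdlan and was below control by 0.44 ± 0.0509 under R406 (limma, adjusted p = 0.00988 and 0.0266). The ERK-dependent transcription list, which holds Srf, kept fewer calls in both comparisons when any 1 array was left out. Whether the calls of Srf itself held in those fits is not given here. Creb1 had a signal of 10.87 and 10.72 in control arrays, 10.56 and 10.49 with curdlan, and 10.50 and 10.33 with R406 plus curdlan, and was not called (limma, adjusted p = 0.253 with curdlan and 0.105 against control). Whether either factor acts on Dusp5 or Dusp1 was not tested.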
